A study of Homo sapiens with 8 samples.

Results

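DNA replication genes encode the proteins that mark origins, unwind the double helix, copy the strands and supply the nucleotides. The 40 genes described here were listed by name for that role, and 39 of them had a row in the expression table of 19035 gene symbols. PRIM2 was not analysed here. All 39 had a mean of at least 1 TPM (transcript abundance per unit of length, scaled to a fixed library total) over the 6 RNA libraries. Their means ran from 4.99 TPM (CLSPN) to 289 TPM (MCM7), with a median of 30.5 TPM, against 20.9 TPM over the 11885 genes that passed the same limit.

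The libraries came from KPL-1 cells, a line from a human breast cancer, carrying a Cas9 nuclease that doxycycline switches on (iCas9). In 3 libraries the cells held an empty guide vector (sgEmpty, labelled wild type), and in 3 a guide construct against the histone methyltransferase gene SETD1A (sgSETD1A, labelled as knockout). All 6 were taken on day 7 of doxycycline, so the controls also carried the nuclease and the drug. The title of the study ties SETD1A to proliferation through cyclin K, and a guide pool carried by KPL-1 cells was counted at day 0 and day 14 of doxycycline, in 1 library each. The labels do not say whether replicates were separate cultures, how many guides sgSETD1A stands for or whether the line is a clone, so the spread between libraries that p-values here rest on may be technical only. TPM keeps no record of sequencing depth, which is therefore unknown for the RNA.

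Before replication, the origin recognition complex (ORC) with CDC6 and CDT1 loads the MCM2 to MCM7 ring on DNA, a step called licensing. The kinase CDC7 with its partner DBF4, together with cyclin-dependent kinases, then turns the ring into an active helicase by adding CDC45 and the GINS complex. DNA polymerase alpha with primase starts each strand, the RFC complex loads the PCNA clamp, polymerases epsilon and delta extend, RPA coats exposed single strands, and FEN1 and LIG1 finish the lagging strand. Many of these genes are transcribed as cells enter S phase under E2F factors, which the retinoblastoma protein family restrains. In bulk RNA, fewer cells in S phase and less RNA per cell cannot be told apart.

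SETD1A itself was at 17.5, 17.5 and 18.1 TPM in the sgEmpty libraries and at 9.36, 11.3 and 10.7 TPM in the sgSETD1A libraries, a change of -0.71 log2 (limma adjusted p = 9.13e-05). CCNK, which encodes cyclin K, went from 85.5 ± 2.58 to 97.8 ± 1.45 TPM (SD, n = 3). Library profiles correlated at 0.995 to 0.998 within groups and 0.988 to 0.990 between them, across genes, and sgSETD1A replicate 1 stood somewhat apart from the other libraries of its group (at most 0.9956, against 0.9977 between those). Of 7 luminal breast markers (ESR1, GATA3, FOXA1, KRT8, KRT18, EPCAM and CDH1), 7 had a mean of at least 1 TPM. Their sum was higher in sgSETD1A (14056 to 14445 TPM, against 12258 to 13219), and most of it came from KRT8 and KRT18. Calls were 5 higher and 0 lower, beside 28.0% and 13.5% of all tested genes. ESR1 (0.0072 log2) and CDH1 did not pass. After median-ratio rescaling 3 were called higher and 1, CDH1, lower, beside 14.9% and 19.6% of all tested genes. Of 3 immune markers (PTPRC, CD3E and CD68) only CD68 had a mean of at least 1 TPM, and their sum ran from 1.36 to 1.79 TPM. No basal marker of 3 reached that mean (KRT5 was listed at 0, and the sums were 0.28 to 0.59 TPM in sgEmpty and 1.12 to 1.31 TPM in sgSETD1A), and of 4 stromal markers 2 did, with sums of 4.33 to 5.90 TPM in sgEmpty and 4.01 to 6.44 TPM in sgSETD1A. Proliferation markers (MKI67, TOP2A, CCNB1, CDK1, CCNA2, BUB1, AURKA and PLK1) summed to 436, 439 and 450.5 TPM in sgEmpty and 486, 487 and 525 TPM in sgSETD1A. Among these 8, 5 were called higher and 0 lower, beside 28.0% and 13.5% of all tested genes. CCNA2, BUB1 and PLK1 did not pass, and the change of PLK1 was negative (-0.054 log2). After median-ratio rescaling 1 of 8 was called higher, beside 14.9% of all tested genes. The part of these marker shifts in the results below was not tested.

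Fewer than 1 in 2 replication genes changed: some rose slightly in sgSETD1A, among them the ribonucleotide reductase gene RRM2 and the GINS subunit gene GINS2, and RPA3 and PRIM1 fell. Each gene was tested with limma on log2(TPM + 1), and all changes below are on that scale, sgSETD1A minus sgEmpty, and called at a Benjamini-Hochberg adjusted p under 0.05 over all tested genes. Of the 39 members 15 rose (38.5%) and 2 fell (5.13%), and 22 did not pass. Over all tested genes 28.0% were called higher and 13.5% lower, or 41.5% in either direction, against 43.6% of the members. The share of members that changed was thus near the background. The members had a median change of 0.12 log2, and all tested genes one of 0.073. Few changes were large: 3 members rose by at least 0.3 log2 (10.9% of all tested genes did) and 2 fell by as much (7.27%). The groups did not overlap in 25 members, 20 of them higher and 5 lower, or 64.1%, beside 53.7% of all tested genes.

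How many members were called up or down changed with the way libraries were scaled. After median-ratio rescaling, which takes out the shift of 0.073 log2 shared by the bulk of genes, 8 members were called higher and 5 lower, beside 14.9% and 19.6% of all tested genes. After quantile normalization the counts were 11 and 4, beside 18.1% and 17.3%. No member was called in opposite directions under the deposited and the rescaled values. Of the 17 calls with TPM as deposited, 10 held under all 14 alternatives tried: the rises of RRM2, TYMS, TK1, GINS2, MCM5, RFC2, FEN1 and LIG1 and the falls of RPA3 and PRIM1.

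**Figure D1:**
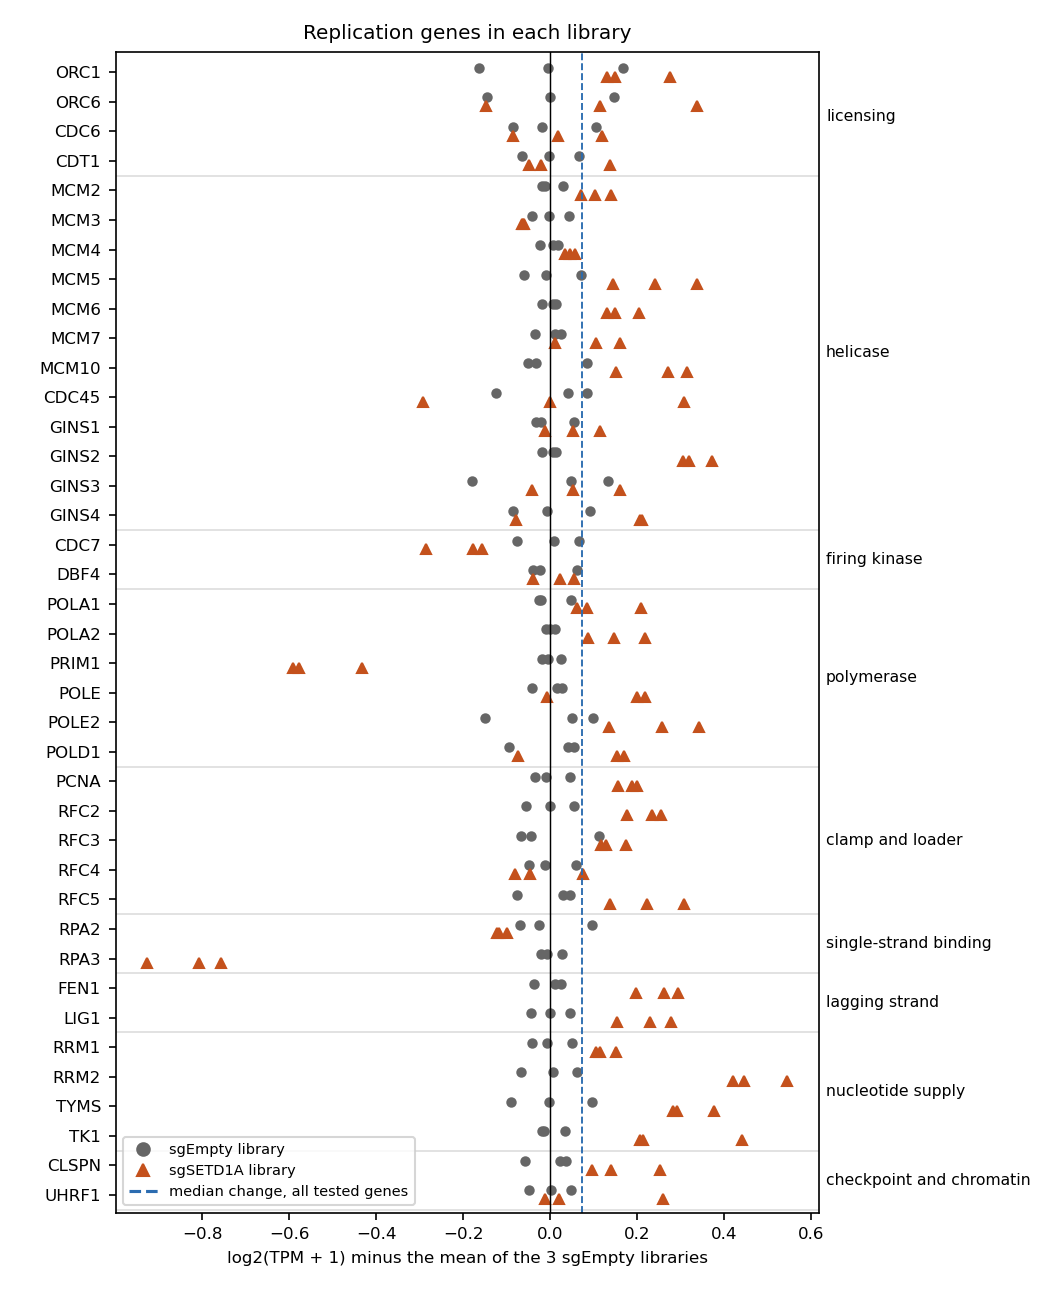
Each row is a member, grouped by role; points give log2(TPM + 1) in each of the 3 sgEmpty (circles) and 3 sgSETD1A (triangles) libraries, less the mean of the sgEmpty libraries. The dashed line marks the median change of all tested genes, 0.073 log2. RPA3 and PRIM1 lie far to the left, and the 4 nucleotide supply genes lie to the right in all 3 sgSETD1A libraries.

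Promoter windows of 5 members are printed to show the letters that many replication genes share, in 4 genes that rose and 1 that fell. They are the 250 bases before the outermost listed start of each gene, 5′ to 3′ on the gene's strand, from RefSeq (GRCh38.p14, a later build than the hg19 named for the expression data). Capitals mark E2F-type letters (TTTCCCGC, TTTCGCGC, TTTGCCGC or TTTGGCGC) and CCAAT boxes on either strand. GINS2, MCM6, PCNA and RRM2 rose and PRIM1 fell.
GINS2 (chr16:85688955-85689204, minus strand): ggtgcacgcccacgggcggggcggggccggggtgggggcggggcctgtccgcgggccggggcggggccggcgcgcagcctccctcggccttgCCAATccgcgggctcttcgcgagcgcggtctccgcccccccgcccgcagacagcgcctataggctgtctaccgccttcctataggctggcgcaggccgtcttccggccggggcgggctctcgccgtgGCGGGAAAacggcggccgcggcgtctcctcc
MCM6 (chr2:135876444-135876693, minus strand): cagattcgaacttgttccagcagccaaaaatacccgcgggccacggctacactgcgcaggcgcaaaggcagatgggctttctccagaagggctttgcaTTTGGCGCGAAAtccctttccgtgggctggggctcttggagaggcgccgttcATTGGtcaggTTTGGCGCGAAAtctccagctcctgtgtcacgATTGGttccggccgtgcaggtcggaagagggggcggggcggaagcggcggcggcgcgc
PCNA (chr20:5126623-5126872, minus strand): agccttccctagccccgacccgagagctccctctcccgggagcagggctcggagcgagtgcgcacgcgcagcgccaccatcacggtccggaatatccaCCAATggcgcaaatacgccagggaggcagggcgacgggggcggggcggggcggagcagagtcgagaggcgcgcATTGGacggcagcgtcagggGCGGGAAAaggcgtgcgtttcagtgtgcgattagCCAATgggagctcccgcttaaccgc
RRM2 (chr2:10122318-10122567, plus strand): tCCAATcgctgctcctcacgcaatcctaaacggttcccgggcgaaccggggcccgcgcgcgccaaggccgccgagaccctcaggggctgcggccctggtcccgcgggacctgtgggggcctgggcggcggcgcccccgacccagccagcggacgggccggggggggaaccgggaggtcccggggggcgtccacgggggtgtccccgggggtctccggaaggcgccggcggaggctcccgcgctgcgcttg
PRIM1 (chr12:56752324-56752573, minus strand): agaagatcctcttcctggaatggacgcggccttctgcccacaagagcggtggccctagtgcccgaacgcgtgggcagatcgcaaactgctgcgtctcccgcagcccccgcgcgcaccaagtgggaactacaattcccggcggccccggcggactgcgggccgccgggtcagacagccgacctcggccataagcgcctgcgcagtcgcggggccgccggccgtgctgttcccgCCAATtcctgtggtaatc

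In the GINS2 window the E2F-type letters lie 31 to 24 bases before the start and a CCAAT box 158 to 154 bases before it. MCM6 holds 2 copies of TTTGGCGCGAAA, where 2 of the searched motifs overlap, and 2 CCAAT boxes read on the other strand as ATTGG. PCNA has E2F-type letters 59 to 52 bases before the start among 3 CCAAT boxes. RRM2 and PRIM1 have a CCAAT box and no E2F-type letters in these windows. No other gene of the RefSeq table overlaps any of the 5 windows.

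Over the full windows of 300 bases (250 before to 50 after each listed start), 35 of the 40 listed genes had at least 1 window; MCM4, MCM5, GINS4, RPA2 and RPA3 had none. E2F-type letters were found for 20 of the 35 (57.1%), against 587 of 8708 tested genes with a window (6.74%). The share was 3.99% over all 27305 genes with a window. CCAAT on either strand was found for 20 of 35 (57.1%), against 43.6% of tested genes, and GGGCGG, the core of a GC box, for 26 of 35 (74.3%), against 78.5%. Members called higher were found with and without the letters, and no test was made. Of the 20 with E2F-type letters 7 rose and 0 fell, with a median change of 0.13 log2. Of the 15 without them, PRIM2 included, 7 rose and 1 fell, with a median of 0.15. These counts stand beside 28.0% of all tested genes called higher and 13.5% called lower. RPA3, which fell, and MCM5, which rose, had no window and are not counted. A match is a description of these windows and not a measured binding site.

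**Figure D2:**
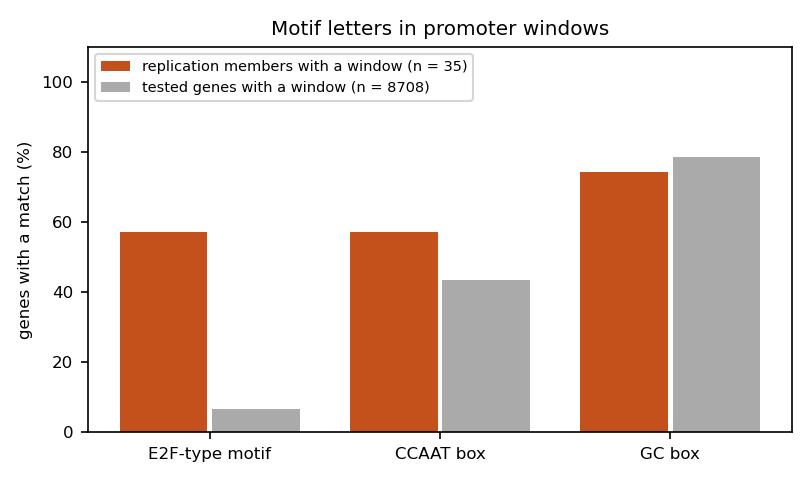
Bars give the percentage of genes with at least 1 match on either strand in their 300-base windows, for the 35 listed replication genes and the 8708 tested genes that had a window. The E2F-type motif was found for 57.1% and 6.74%, while CCAAT and GC boxes differed less.

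All 4 listed nucleotide supply genes rose with TPM as deposited, 1 of them narrowly, beside 28.0% of all tested genes. RRM2, the small subunit of ribonucleotide reductase, which makes deoxyribonucleotides, measured 78.3, 74.4 and 81.4 TPM in sgEmpty and 114, 106 and 105 TPM in sgSETD1A. Every sgSETD1A library was above every sgEmpty library, and the change was 0.47 log2 (SE 0.048; limma adjusted p = 0.00011). TYMS, which makes thymidylate, was at 53.4, 56.8 and 60.9 TPM against 69.5, 69.9 and 74.2 TPM, a rise of 0.32 log2 (limma adjusted p = 0.00165). TK1, the thymidine kinase of the salvage route, was at 66.8, 64.3 and 64.5 TPM against 75.7, 88.9 and 75.3 TPM, a rise of 0.29 log2 (limma adjusted p = 0.00579), with sgSETD1A replicate 2 the highest. RRM1, the large reductase subunit, had 41.0, 42.6 and 39.9 TPM against 45.8, 44.6 and 44.4 TPM. Its change of 0.12 log2 passed narrowly (limma adjusted p = 0.047) and did not pass under 10 of 14 alternatives, among them median-ratio rescaling (adjusted p = 0.485) and the removal of any single library. Among 8 further genes listed under nucleotide supply 2 rose and 3 fell, beside 28.0% and 13.5% of all tested genes, and their median change was -0.061 log2. The 2 that rose were DCK (0.24 log2) and SAMHD1 (0.61 log2), and SAMHD1 breaks deoxyribonucleotides down. DUT, which removes dUTP, fell by 0.23 log2 from 43.7 ± 1.80 to 37.2 ± 2.96 TPM (SD, n = 3; limma adjusted p = 0.015), and DTYMK, which phosphorylates thymidylate, fell by 0.28 log2 from 50.6 ± 2.71 to 41.6 ± 3.98 TPM (SD, n = 3; adjusted p = 0.0117).

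The 2 reductase subunits thus changed unequally. The log2 ratio of RRM2 to RRM1, which does not depend on a library's scaling factor, was 0.93, 0.80 and 1.03 in sgEmpty and 1.32, 1.25 and 1.24 in sgSETD1A, a difference of 0.35 (SD of 0.11 and 0.042, n = 3). The groups did not overlap. TYMS lies against 2 genes on the opposite strand in the RefSeq table, and the labels do not say whether reads were counted by strand, so its value is uncertain. ENOSF1, which overlaps its end, had means of 11.9 ± 1.37 TPM in sgEmpty and 15.1 ± 2.76 TPM in sgSETD1A (SD, n = 3) and did not pass (limma adjusted p = 0.0742), and C18orf56, now TYMSOS, fell from 6.45 ± 0.11 to 3.70 ± 0.30 TPM (SD, n = 3).

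**Figure D3:**
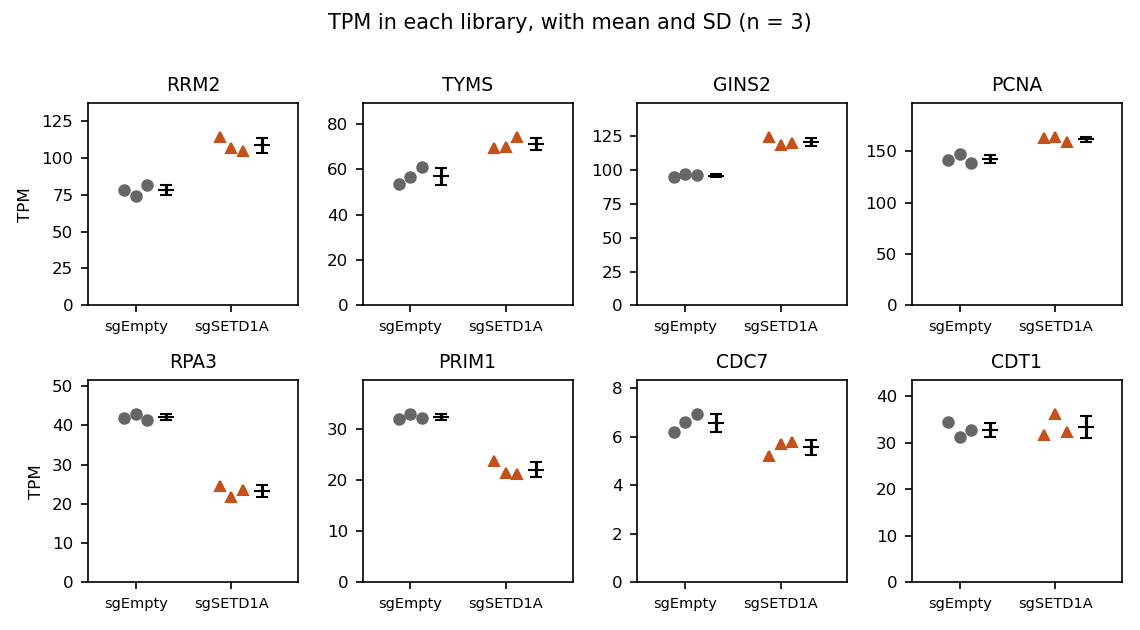
TPM of 8 members in each library (circles, sgEmpty; triangles, sgSETD1A), with the mean and SD of each group of 3 beside them; every axis starts at 0. RRM2, TYMS, GINS2 and PCNA are higher and RPA3 and PRIM1 lower in all 3 sgSETD1A libraries, CDC7 is lower without passing the test, and CDT1 overlaps.

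The subunits of the single-strand binding protein RPA moved unequally. RPA3, the smallest subunit of the RPA trimer, measured 41.8, 42.8 and 41.4 TPM in sgEmpty and 24.5, 21.6 and 23.6 TPM in sgSETD1A. The groups were far apart, and the difference of -0.83 log2 (limma adjusted p = 9.01e-06, SE 0.054) was the largest change of any member. RPA2, the middle subunit, was at 56.9, 61.9 and 55.1 TPM against 53.1, 53.3 and 54.0 TPM. Its change of -0.11 log2 did not pass with TPM as deposited (limma adjusted p = 0.0916), while both median-ratio rescaling (-0.19, adjusted p = 0.0178) and quantile normalization (-0.15, adjusted p = 0.0459) made it pass. RPA1, the large DNA-binding subunit, which was not among the 39, rose from 62.5, 63.1 and 63.2 TPM to 77.8, 72.6 and 76.8 TPM (0.26 log2; limma adjusted p = 0.00101). The log2 ratio of RPA3 to RPA2 was -0.44, -0.53 and -0.41 in sgEmpty and -1.12, -1.30 and -1.19 in sgSETD1A, a difference of -0.74 (SD of 0.061 and 0.091, n = 3), or 0.725 RPA3 transcripts per RPA2 transcript against 0.434. RPA3 overlaps UMAD1 in the RefSeq table, and PCNA an antisense RNA, PCNA-AS1; neither was analysed here.

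Among the 6 members listed as polymerases, the primase subunit PRIM1 stood out and was the only one called lower. PRIM1, which synthesises the RNA primers, was at 31.9, 32.9 and 32.3 TPM in sgEmpty and 23.7, 21.4 and 21.1 TPM in sgSETD1A, with no overlap, and differed by -0.53 log2 (limma adjusted p = 0.000121, SE 0.055). POLA1 and POLA2, the polymerase alpha subunits of the same complex, were not lower. POLA1, the catalytic subunit, was at 13.4, 12.7 and 12.8 TPM against 15.1, 13.8 and 13.6 TPM (0.12 log2; limma adjusted p = 0.151). POLA2, the accessory subunit, was at 25.7, 25.5 and 25.4 TPM against 28.4, 27.2 and 29.9 TPM and was called higher (0.15 log2; limma adjusted p = 0.0375). The log2 ratio of PRIM1 to POLA1 was 1.25, 1.37 and 1.34 in sgEmpty and 0.65, 0.63 and 0.64 in sgSETD1A, a difference of -0.68 (SD of 0.064 and 0.0091, n = 3). That is 2.5 PRIM1 transcripts per POLA1 transcript in sgEmpty and 1.56 in sgSETD1A. Of 5 further genes listed as polymerases 1 rose and 2 fell, beside 28.0% and 13.5% of all tested genes. The rise was that of POLE4 (0.14 log2), and the falls were those of POLD4 (-0.25 log2) and POLE3 (-0.10 log2). After median-ratio rescaling 0 rose and 2 fell, beside 14.9% and 19.6% of all tested genes.

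POLE2, the second subunit of the leading strand polymerase epsilon, rose from 8.46, 9.87 and 10.2 TPM to 10.5, 11.5 and 12.3 TPM (0.24 log2; limma adjusted p = 0.0425). The calls of POLA2 and POLE2 were both lost after either rescaling (adjusted p = 0.297 and 0.135 after median-ratio rescaling) and when certain single libraries were left out, with adjusted p up to 0.138 for POLA2 and 0.137 for POLE2, each without sgSETD1A replicate 3. POLE, the catalytic subunit of polymerase epsilon, was at 27.6, 26.5 and 27.8 TPM against 27.1, 31.9 and 31.5 TPM (limma adjusted p = 0.121). In it sgSETD1A replicate 1 lay among the sgEmpty libraries and the others above them. POLD1, the catalytic subunit of polymerase delta, showed the same order, with 17.9 TPM in sgSETD1A replicate 1 and 21.3 and 21.1 TPM in the others, against 17.6 to 19.6 TPM in sgEmpty (limma adjusted p = 0.408).

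The helicase genes moved unevenly: of 12, 4 rose, 0 fell and 8 did not pass, beside 28.0% higher and 13.5% lower over all tested genes. Their median change was 0.098 log2. After median-ratio rescaling 2 rose and 1 fell, beside 14.9% and 19.6% of all tested genes. GINS2, a subunit of the GINS complex, had the largest rise among them, from 94.6, 96.9 and 96.4 TPM to 124, 119 and 119.9 TPM (0.33 log2, SE 0.036; limma adjusted p = 0.000141), with no overlap. The other GINS subunits were far less abundant and overlapped between groups: GINS1 (0.051 log2), GINS3 (0.056) and GINS4 (0.11) lay between 4.49 and 14.04 TPM in every library and did not pass. GINS2 also had 95.96 ± 1.17 TPM in sgEmpty beside 12.9 ± 0.47 for GINS1 (SD, n = 3). As background, the complex holds its subunits in equal parts. GINS2 overlaps KIAA0182 (now GSE1) at its end on the other strand, and that gene was at 134.1 ± 3.73 and 142.5 ± 3.39 TPM (SD, n = 3) without passing. CDC45, which joins the ring with GINS, was the most variable, at 7.08, 8.07 and 8.35 TPM against 7.82, 9.90 and 6.2 TPM (limma adjusted p = 0.981).

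Within the MCM2 to MCM7 ring, 2 of the 6 subunits rose, beside 28.0% of all tested genes. MCM5 went from 41.9, 38.1 and 39.5 TPM to 44.1, 50.5 and 47.2 TPM (0.24 log2; limma adjusted p = 0.00985). MCM6 went from 68.8, 70.4 and 70.1 TPM to 80.6, 77.5 and 76.5 TPM (0.16 log2; limma adjusted p = 0.0086), a call lost after median-ratio rescaling (adjusted p = 0.141). MCM2 (0.10 log2; limma adjusted p = 0.0628), MCM4 (0.046) and MCM7 (0.092) did not pass. MCM3 was at 65.2, 67.3 and 63.4 TPM against 62.6, 62.5 and 62.4 TPM. It had the only negative change among the helicase genes (-0.062 log2; limma adjusted p = 0.231) and passed as lower once libraries were rescaled by median ratios (-0.14; adjusted p = 0.0283). MCM7 took 47.3% to 48.4% of the summed TPM of the 6 subunits in sgEmpty and 46.6% to 48.8% in sgSETD1A. Its introns host a cluster of microRNAs, and it overlaps AP4M1 on the other strand in the RefSeq table, so its value is uncertain. MCM5 took the smallest share, 6.62% to 7.14% and then 7.30% to 7.91%. MCM10, a factor that helps to start unwinding, rose from 10.7, 11.7 and 10.6 TPM to 13.5, 13.9 and 12.3 TPM (0.24 log2; limma adjusted p = 0.018). Its call was lost after either rescaling (adjusted p = 0.0846 and 0.0666) and when sgEmpty replicate 1 (0.0547), sgEmpty replicate 3 (0.0619) or sgSETD1A replicate 2 (0.0664) was left out.

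The clamp gene and 2 of the 4 listed loader genes rose, beside 28.0% of all tested genes. PCNA, the sliding clamp, went from 141, 147 and 139 TPM to 162, 164 and 159 TPM (0.18 log2; limma adjusted p = 0.00329), with no overlap. After median-ratio rescaling the change was 0.10 log2 and did not pass (adjusted p = 0.0631). RFC2 rose from 50.6, 52.6 and 54.7 TPM to 59.6, 62.0 and 63.0 TPM (0.22 log2; limma adjusted p = 0.00404), and this held under every alternative. RFC5 rose from 26.6, 29.0 and 28.7 TPM to 35.0, 32.9 and 31.0 TPM (0.22 log2; limma adjusted p = 0.0142). Its call was lost after median-ratio rescaling (adjusted p = 0.0891) and without sgEmpty replicate 1 (0.0504). RFC5 overlaps WSB2 on the other strand, a gene that rose from 54.1 ± 0.97 to 68.0 ± 0.26 TPM (SD, n = 3), so its value is uncertain. RFC3 (0.14 log2; limma adjusted p = 0.0695) did not pass. RFC4 showed no shift, at 24.1, 22.3 and 22.9 TPM against 21.8, 22.3 and 24.4 TPM (-0.017 log2).

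Both listed enzymes that finish the lagging strand rose, beside 28.0% of all tested genes. FEN1, the flap nuclease, went from 56.4, 55.8 and 54.0 TPM to 68.1, 66.5 and 63.6 TPM (0.25 log2; limma adjusted p = 0.00163). LIG1, the ligase that seals the nicks, went from 31.3, 30.4 and 32.4 TPM to 35.0, 38.2 and 37.0 TPM (0.22 log2; limma adjusted p = 0.00732). In each gene all sgSETD1A libraries were above all sgEmpty libraries. Of 4 further genes listed under the lagging strand 0 rose and 1 fell, beside 28.0% and 13.5% of all tested genes. Their median change was 0.0029 log2. The fall was that of RNASEH2A, from 66.3 ± 1.80 to 56.9 ± 4.57 TPM (SD, n = 3), or -0.22 log2 (limma adjusted p = 0.0145). After median-ratio rescaling 0 rose and 2 fell, beside 14.9% and 19.6% of all tested genes.

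None of the 4 licensing genes and neither firing kinase gene passed in the main fit to TPM as deposited. CDC6, the loading factor, was at 18.7, 21.4 and 19.6 TPM against 21.7, 20.2 and 18.7 TPM (0.017 log2; limma adjusted p = 0.862). CDT1, its partner, was at 34.4, 31.3 and 32.7 TPM against 31.7, 36.1 and 32.3 TPM (0.023 log2; limma adjusted p = 0.785). ORC6, a small subunit of the origin complex, was at 8.74, 9.77 and 7.80 TPM against 9.53, 11.3 and 7.79 TPM (0.10 log2). In these 3 genes the groups overlapped. ORC1, the large subunit, was at 9.69, 8.48 and 7.5 TPM against 10.5, 9.42 and 9.55 TPM (0.19 log2; limma adjusted p = 0.125) and was called higher only without sgEmpty replicate 1 (0.27 log2; adjusted p = 0.0394). ORC1 overlaps PRPF38A on the other strand, a gene that was at 33.4 ± 0.60 and 36.7 ± 1.80 TPM (SD, n = 3) without passing. At an unadjusted p under 0.05, 0 of the 4 licensing genes passed, by limma, under TPM as deposited or either rescaling. Of 7 further genes listed under licensing 4 rose and 1, ORC5, fell, beside 28.0% and 13.5% of all tested genes. The rises were those of ORC2, LRWD1, GMNN and MCMBP, by 0.28, 0.18, 0.21 and 0.13 log2. The list does not separate factors that promote licensing from those that restrain it. After median-ratio rescaling 1 rose and 2 fell, beside 14.9% and 19.6% of all tested genes.

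CDC7, the kinase subunit that fires origins, was lower in every sgSETD1A library, at 6.18, 6.61 and 6.92 TPM against 5.21, 5.70 and 5.78 TPM. Its change of -0.21 log2 was just short of the threshold in the main fit (limma adjusted p = 0.0521). CDC7 was called lower under 5 of 14 alternatives. These were median-ratio rescaling (-0.27, adjusted p = 0.0181), quantile normalization (-0.27, adjusted p = 0.0171), a pseudocount of 5, a mean of at least 5 TPM and no trend. DBF4, the subunit that activates CDC7, was several times as abundant and overlapped between groups, at 28.7, 26.7 and 26.9 TPM against 28.5, 27.8 and 26.7 TPM (0.012 log2; limma adjusted p = 0.861). Of 5 further genes of the firing kinases 2 rose and 0 fell, beside 28.0% and 13.5% of all tested genes. The 2 were the cyclin genes CCNE1 (0.22 log2) and CCNE2 (0.30 log2), while the cyclin gene CCNA2 did not pass (0.041 log2). After median-ratio rescaling 1 rose, beside 14.9% of all tested genes. CLSPN, a checkpoint mediator that travels with the fork, was at 4.43, 4.79 and 4.74 TPM against 5.22, 5.73 and 5.04 TPM (0.16 log2; limma adjusted p = 0.122). UHRF1, which carries DNA methylation over to new strands, was at 19.6, 18.3 and 19.0 TPM against 18.8, 22.8 and 19.2 TPM (0.089 log2; limma adjusted p = 0.363).

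Summed over a role, the TPM of the 12 helicase genes went from 727 ± 3.39 to 795 ± 18.2 (SD, n = 3) and that of the 4 nucleotide supply genes from 241 ± 4.59 to 304 ± 5.68. MCM7, which did not pass, was the largest part of the helicase sum (279 ± 6.06 and 298 ± 15.5 TPM). The clamp and loader went from 281 ± 4.66 to 317 ± 2.15, single-strand binding from 99.99 ± 4.28 to 76.7 ± 1.5, the polymerases from 127 ± 1.38 to 126 ± 3.39 and licensing from 70.0 ± 2.10 to 72.9 ± 4.37 TPM. The median changes by role were 0.30 log2 for nucleotide supply, 0.24 for the lagging strand, 0.18 for clamp and loader, 0.13 for polymerases and for the pair CLSPN and UHRF1, 0.098 for the helicase, 0.062 for licensing, -0.097 for the firing kinases and -0.47 for single-strand binding, beside 0.073 for all tested genes. After median-ratio rescaling the licensing median was -0.012 and the helicase median 0.020 log2. These sums and medians rest on few genes each, the sums mostly on the abundant ones, and describe the listed genes only.

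**Figure D4:**
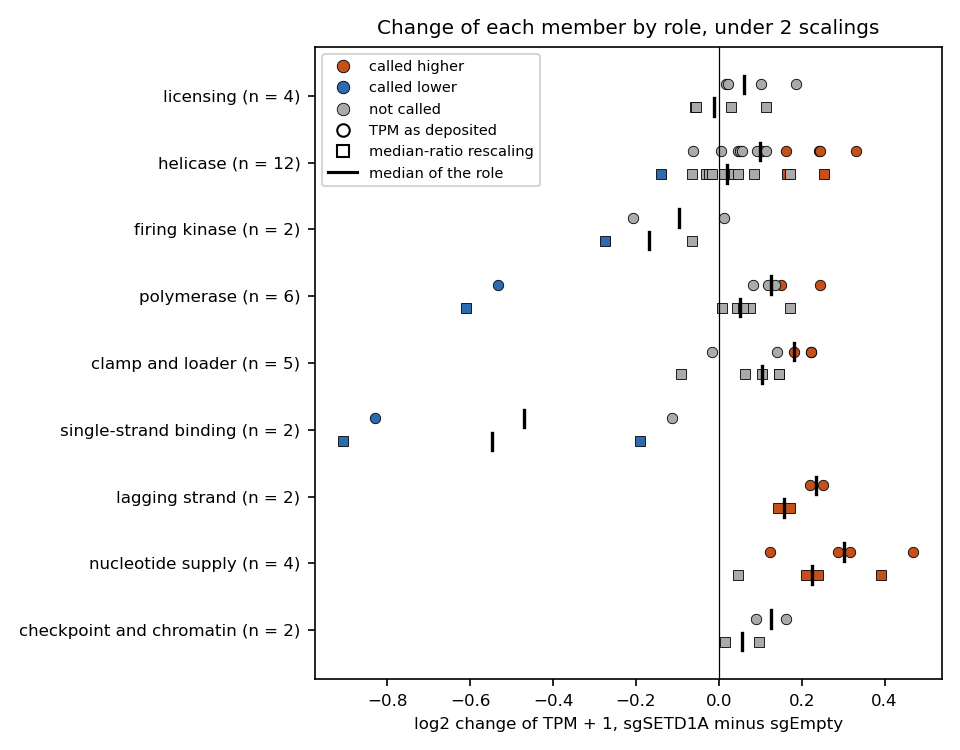
Each point is a member's log2 change, sgSETD1A minus sgEmpty, by role, with TPM as deposited (circles, upper row) and after median-ratio rescaling (squares, lower row); colour gives the limma call and bars mark the median of the role. Rescaling moves every role to the left by a similar amount, and the medians of licensing, the firing kinases and single-strand binding are then below 0 and the others above it.

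A further list of 50 replication genes outside the 39 held 18 that rose, 9 that fell and 23 that did not pass, beside 28.0% and 13.5% of all tested genes called higher and lower, and the median change was 0.099 log2. After median-ratio rescaling 7 rose and 11 fell (14.9% and 19.6% of all tested genes), and after quantile normalization 9 and 10 (18.1% and 17.3%). Without sgEmpty replicate 1 or sgEmpty replicate 2, 9 rose, without sgSETD1A replicate 2, 11, and without sgSETD1A replicate 3, 10. The largest rise was that of SAMHD1, which breaks deoxyribonucleotides down and so opposes the supply enzymes, from 6.43, 5.83 and 5.93 TPM to 11.3, 9.31 and 8.77 TPM (0.61 log2; limma adjusted p = 0.000972). DONSON, which helps to deliver GINS to the MCM ring, rose from 6.86, 7.34 and 6.68 TPM to 9.04, 10.5 and 10.4 TPM (0.46 log2; limma adjusted p = 0.00145). ORC5, a subunit of the origin complex, fell from 46.2, 48.2 and 46.3 TPM to 37.7, 37.0 and 35.9 TPM (-0.34 log2; limma adjusted p = 0.000365). TK2, the mitochondrial thymidine kinase, fell from 3.61, 3.22 and 3.43 TPM to 1.95, 2.49 and 2.6 TPM (-0.41 log2; limma adjusted p = 0.0115).

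Of 5 further genes listed under clamp and loader 1 rose and 1 fell, beside 28.0% and 13.5% of all tested genes. After median-ratio rescaling 0 rose and 1 fell, beside 14.9% and 19.6%. The fall was that of CHTF8, from 135 ± 1.72 to 111 ± 2.89 TPM (SD, n = 3). Its change was -0.28 log2 (limma adjusted p = 0.000341), and it was called lower after either rescaling too. CHTF18, of an alternative clamp loader, and the helicase gene RECQL4 were called higher (0.46 and 0.31 log2; limma adjusted p = 0.0464 and 0.0303). In CHTF18, sgSETD1A replicate 1 lay at 13.7 TPM, within the sgEmpty range of 10.95 to 15.5 TPM, and the others at 21.6 and 20.5 TPM. In RECQL4, sgSETD1A replicate 1 lay at 18.8 TPM, just above the highest sgEmpty value of 18.7 TPM, and the others at 25.5 and 23.8 TPM. Both calls were lost after either rescaling and without sgEmpty replicate 1 (adjusted p = 0.105 and 0.0558), sgEmpty replicate 2 (0.157 and 0.0842), sgSETD1A replicate 2 (0.153 and 0.102) or sgSETD1A replicate 3 (0.135 and 0.0922), and that of RECQL4 also without sgEmpty replicate 3 (0.0809).

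A list of 14 genes covered the E2F and retinoblastoma families, which set the transcription of many replication genes, and MYBL2, which is of neither family. Of these 14, 7 rose and 1 fell, beside 28.0% and 13.5% of all tested genes, and the median change was 0.20 log2. After median-ratio rescaling 4 rose and 1 fell (14.9% and 19.6% of all tested genes), and after quantile normalization 5 and 1 (18.1% and 17.3%). MYBL2, a transcription factor of cycling cells, rose from 37.9, 35.4 and 35.4 TPM to 52.2, 51.4 and 48.2 TPM (0.47 log2, limma adjusted p = 0.000129). It is counted among the rises under each scaling. E2F1, an activator, rose from 10.5, 11.5 and 9.98 TPM to 12.1, 15.1 and 14.4 TPM (0.35 log2; limma adjusted p = 0.0112). RB1, which restrains E2F, also rose (0.27 log2; limma adjusted p = 0.00207), and its relative RBL2 fell (-0.22 log2; limma adjusted p = 0.0129), a call that was lost without sgEmpty replicate 3.

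The guide pool gave a separate readout for 2 members, PCNA and RPA3, with 5 guides each. Guide change was the log2 ratio of CPM + 1 (CPM, reads of a guide scaled to a common library total), day 14 over day 0, less the median over 200 HGLibA guides, which were taken as controls from their naming. PCNA guides were at -4.59, -4.27, -4.03, -4.03 and -1.75, with a median of -4.03. All 5 lay below the central 95% of the HGLibA guides, -0.86 to 0.88. RPA3 guides were at -3.81, -3.06, -2.90, -1.56 and -0.41, with a median of -2.90, and 4 of 5 lay below that range. So did 3 of 5 guides to the AAVS1 locus, a common cutting control, at -1.46, -1.30 and -1.01 (the others were at -0.74 and 0.18), and the RPA3 guide at -1.56 was close to the lowest of these. The RPA3 guide within the range, RPA3_196, had 805 reads at day 0 and 1030 at day 14 (exact 95% interval of its log2 ratio -0.54 to -0.27, which covers counting error only). The weakest PCNA guide, PCNA_374, went from 1188 to 593 reads.

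Guides to other essential genes in the pool had medians of -3.01 (POLR2A), -4.39 (POLR2L) and -3.58 (SF3B3), and the AAVS1 guides had one of -1.01. The RPA3 median was thus the least negative of the 5 essential genes, though the guides of each gene spread widely. Each day has a single library and so no replicate check, guides to 1 gene share their target, and no test was made. The pool measures loss of guides and not transcripts, so it does not bear on how RPA3 and PCNA RNA differed between sgEmpty and sgSETD1A.

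**Figure D5:**
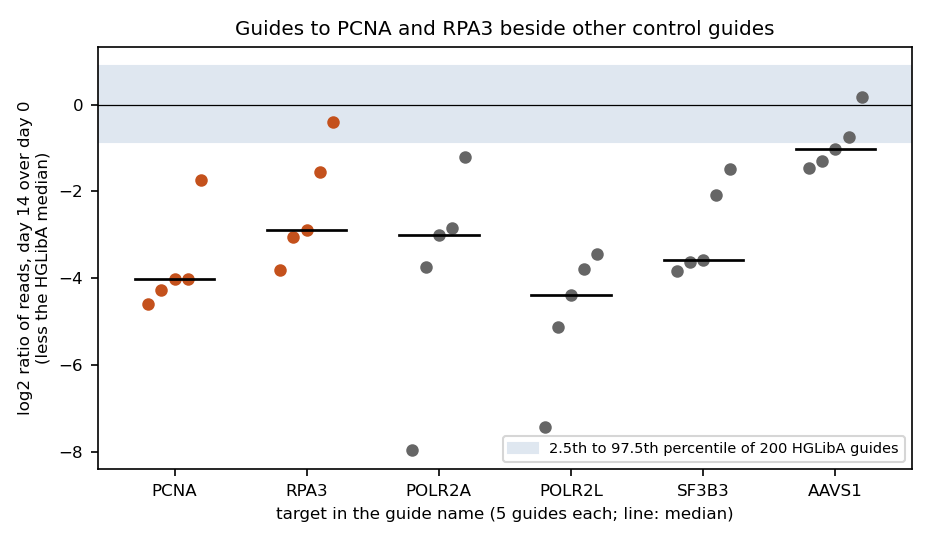
Points are guides, 5 per target, placed by the log2 ratio of reads at day 14 over day 0 less the HGLibA median; lines are target medians and the band spans the central 95% of 200 HGLibA guides. The 5 PCNA guides and 4 of the 5 RPA3 guides lie below the band.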

How the data were processed

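RNA was measured in 3 sgEmpty and 3 sgSETD1A libraries, and guides in 1 library at day 0 and 1 at day 14; groups and replicate numbers came from sample titles. The authors deposited TPM per gene symbol; bcl2fastq 2.20.0, STAR 2.6.0c, RSEM 1.3.1 and the build hg19 are listed in the submitters' processing notes, with no roles. A row without a gene name, the column total, was left out. Guide reads were deposited by the authors as raw counts, 10145466 and 10255022 in all for 5995 guides; the unnamed total row equalled their sum and was left out.

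Here limma 3.58.1 in R 4.3.3 was fitted with a mean-variance trend to log2(TPM + 1) of genes with a mean of at least 1 TPM, after a check on simulated data. A change on the log2(TPM + 1) scale understates that of low genes. C15orf42 was matched to TICRR as a synonym. The members and lists were chosen with earlier results of these data known. Genes named with values were members called under any scaling, the 2 largest changes of each role, SETD1A and CCNK. Up to 8 other replication or regulator genes called with a change of at least 0.3 log2 were named as well. RB1, RBL2, RPA1, ORC2, LRWD1, GMNN, MCMBP, CCNE1, CCNE2, DUT and DTYMK were added after their values were seen. So were CHTF8, RNASEH2A, POLD4, POLE3, POLE4, overlapping genes and members that fill out a role. Alternatives were other pseudocounts (0.1 and 5), filters (none, or a mean of at least 5 TPM), scalings, no trend, a replicate block and leaving out each library. Guides needed at least 30 reads at day 0, and intervals are Clopper-Pearson. Some control values are not reported here.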

Additional observations from a re-analysis of the deposited data

How the results depend on the processing

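Of the 17 calls of members, 10 held under all 14 alternatives and 7 were lost under some, all 7 under median-ratio rescaling. Members called lower numbered 5 after that rescaling and 4 after quantile normalization, and 2 without any single library. They numbered 3 with a pseudocount of 5, with a mean of at least 5 TPM and with no trend. Members called higher numbered 8 after that rescaling and 11 after quantile normalization, and 11 to 16 when single libraries were left out. For the other replication genes the rises were 7, 9 and 9 to 18, and over all tested genes they were 1766, 2147 and 2361 to 3459. DBF4, never called, turned from 0.012 to -0.064 log2 after median-ratio rescaling, -0.020 after quantile normalization, and, over fits that left out single libraries, ran from -0.0085 to 0.044 (below 0 without sgEmpty replicate 2, at -0.0068, or the first sgSETD1A library). ORC6, also never called, ran from -0.017 (the second sgSETD1A library left out) to 0.23.

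Role medians after median-ratio rescaling and quantile normalization were -0.012 and 0.0087 log2 for licensing, 0.020 and 0.027 for the helicase, -0.17 and -0.14 for firing kinases, 0.052 and 0.079 for polymerases, 0.10 and 0.12 for clamp and loader, -0.55 and -0.51 for single-strand binding, 0.16 and 0.20 for the lagging strand and 0.22 and 0.27 for nucleotide supply. With a pseudocount of 5 they were -0.060 for firing kinases, -0.42 for single-strand binding and 0.29 for nucleotide supply. Leaving out single libraries gave -0.00046 to 0.14 for licensing, 0.062 to 0.14 for the helicase and 0.27 to 0.33 for nucleotide supply. The cause of these moves was not tested.

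The guide medians of PCNA and RPA3 were -3.24 and -2.56 with a pseudocount of 10, and -3.29 and -2.16 without subtracting the HGLibA median. Within 250 bases before the start, E2F-type letters were found for 14 of 35 members (40%) and 5.70% of tested genes.

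Deviations of same-numbered replicates from their group means correlated at 0.085, -0.10 and 0.17. With 3 libraries in each group such deviations are tied to one another, so these values cannot settle whether the numbers pair the libraries. With the replicate block 13 members rose and 2 fell, POLA2 and RRM1 no longer passing (adjusted p = 0.061 and 0.076), and 13 other replication genes rose and 8 fell. The planned ratio of PRIM1 to PRIM2 was not run. The unknown depth of the RNA libraries limits what the lowest members, such as GINS4 and CLSPN, can show.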
